A study of Bos taurus with 8 samples.

Results

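TNFAIP6, PTX3, HAS2 and VCAN encode the enzyme that makes hyaluronan and proteins that bind it in the matrix of the expanding cumulus, and their RNA was followed in bovine granulosa cells around the surge of luteinizing hormone (LH). The genes were chosen by symbol, as hyaluronan synthesis and hyaluronan-binding and cross-linking proteins. Every probe with one of these symbols in the platform annotation was taken, which gave 1 probe per gene. All 4 members were tested, among 14137 genes with 38453 probes, and no member was lost to the filter on dim probes. The probes were EMBV3_41768 for TNFAIP6, EMBV3_19450 for PTX3, EMBV3_41890 for HAS2 and EMBV3_30781 for VCAN. Because the files name no genome build, no position is given.

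Hyaluronan is a long, unbranched sugar chain that is made at the cell surface and pushed out of the cell. In the follicle, the LH surge leads to its build-up between the cumulus cells around the oocyte, so that the cell mass swells, a step called cumulus expansion. HAS2 is a membrane enzyme that makes the chain from UDP sugars. TNFAIP6 transfers the heavy chains of inter-alpha-trypsin inhibitor from serum onto the chain, PTX3 is a long pentraxin that binds these heavy chains and helps hold the matrix together, and VCAN is a large proteoglycan that binds hyaluronan at one end. In mice, loss of TNFAIP6 or PTX3 leaves an unstable cumulus matrix and poor fertility. Mural granulosa cells, which line the follicle wall, also receive the surge and express several of these genes.

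The cells came from Holstein Friesian cows that had been presynchronized with norgestomet implants, estradiol valerate and prostaglandin, then treated with norgestomet again and with FSH, prostaglandin being given during the FSH course. These treatments were shared by all groups. The pre-LH group was sampled 2 h before the surge from follicles of 6 to 8 mm. After GnRH had been given to induce the surge, a group was sampled at 6 h (8 h after GnRH) from follicles above 8 mm, and a group at 22 h (24 h after GnRH) from pre-ovulatory follicles. Time after LH, exposure to GnRH and follicle stage therefore changed together and cannot be told apart. The oocyte with its cumulus had been aspirated before the follicle wall was scraped, so per the labels' protocols mural granulosa cells made up most of the sample and some theca cells came along, as the submitters' PCR for CYP17 showed. The genes are called after cumulus expansion, but cumulus cells were not the cells measured.

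Each of the 8 2-colour arrays set 1 post-LH replicate against 1 pre-LH replicate. The arrays for 6 h were on 1 slide and those for 22 h on the other slide. On both slides the post-LH RNA was in Cy5 for replicates 1 and 2 and in Cy3 for replicates 3 and 4. Dye and replicate pair therefore cannot be told apart, and a dye term in a fit holds both. The design text gives 4 replicates per time point while pre-LH RNA was in 8 channels, so the 2 comparisons with pre-LH may share pre-LH samples, which the labels do not settle. How many animals made up a replicate is not given in the sources used here, so the p-values measure the spread between these samples. The number of arrays limits the precision.

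Between 75.1% and 85.4% of probes were above background in a channel. Over all tested probes, replicates 3 and 4 differed in channel level in a like way on both slides. The difference between replicates 3 and 4 correlated between the slides with r = 0.968 in the pre-LH channel and 0.879 in the post-LH channel, against 0.437 and 0.301 for replicates 1 and 2, which is a description across probes. More than 2-fold lower in replicate 4 than in the other replicates on both slides were 8.10% of the probes before LH and 6.37% after LH. Shares higher in replicate 4, or lower in another replicate, are not given here, so these values do not single out replicate 4. All 12 tested granulosa markers were above background in each group on at least 1 array. Of these, 1 rose and 7 fell at 6 h (8.33% and 58.3%, against 11.5% and 12.8% of all genes). At 22 h, 2 rose and 4 fell (16.7% and 33.3%, against 9.75% and 10.6%). The medians of the granulosa markers were -0.58 at 6 h and -0.24 at 22 h. The log2 of their summed level was 16.9 to 17.1 before LH, 16.6 to 17.0 at 6 h and 15.5 to 17.0 at 22 h.

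Ratios below are log2 of post-LH over pre-LH on each array. Changes are log2 ± SE with n = 4 arrays at each time, from 1 limma model over the 8 arrays that includes the dye. The verbs "rose" and "fell" stand for a Benjamini-Hochberg adjusted p under 0.05 over all tested probes. The SE comes from the shared fit and is the same at both times. At 6 h, 24.3% of the 14137 genes passed this threshold (11.5% higher, 12.8% lower). At 22 h, 20.4% passed (9.75% higher, 10.6% lower). All 4 members passed at 6 h, 3 higher and VCAN lower, and TNFAIP6 and PTX3 passed at 22 h. Since these are bulk samples, fewer cells of a type and less RNA per cell cannot be told apart.

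**Figure D1:**
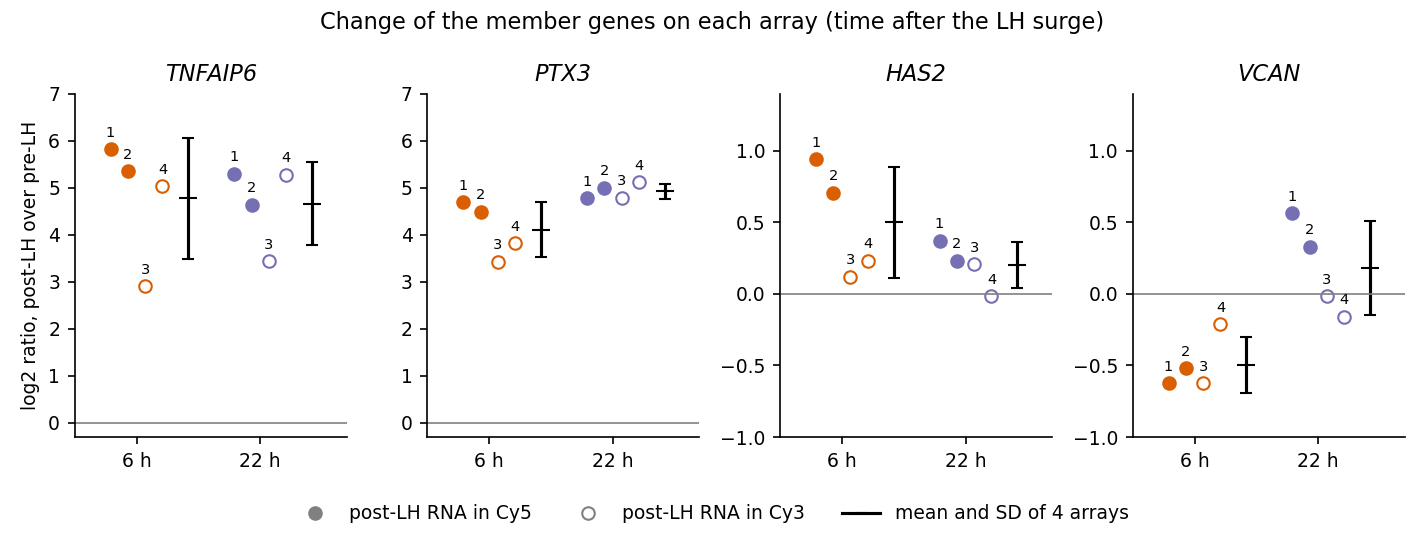
Log2 ratio of post-LH over pre-LH RNA on each of the 8 arrays for the 4 members, by hours after the surge; numbers are replicates, filled points have the post-LH RNA in Cy5 and open points in Cy3, and bars show the mean and SD of 4 arrays. TNFAIP6 and PTX3 lie between 2.90 and 5.82 on every array, while HAS2 and VCAN stay within 1 log2 unit of 0; the vertical scales of the left and right pairs of panels differ.

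TNFAIP6 rose strongly at both times. At 6 h its log2 ratio was 5.82 in replicate 1, 5.34 in replicate 2, 2.90 in replicate 3 and 5.03 in replicate 4. At 22 h the ratios of the same replicate numbers were 5.30, 4.64, 3.43 and 5.28. Replicate 3 gave the lowest ratio on each slide, and the ratio was positive on 8 of 8 arrays. The change was 4.77 ± 0.42 at 6 h (adjusted p = 0.000589) and 4.66 ± 0.42 at 22 h (adjusted p = 0.000686).

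These sizes are limited by the scanner. The TNFAIP6 spot was saturated in the post-LH channel on all 4 arrays of 6 h, so that the gene was at least 27.3-fold higher there. At 22 h it was saturated on 2 of 4 arrays. The fit gave 25.3-fold for 22 h, and with saturated spots left out the remaining 2 arrays gave 39.1-fold. Here "saturated" means that the median pixel of the spot was at the scanner's ceiling. On the remaining 2 arrays the median pixel was 65093 in replicate 1, just below that ceiling, and 57899 in replicate 4. The mean spot intensity of replicate 1, 41184, was close to the 41763 and 41260 of the saturated replicates 2 and 3. The 39.1-fold is therefore not a value free of the ceiling. The difference between the times, -0.11 ± 0.59 (adjusted p = 0.937), compares values at that ceiling and so does not order them. For the same reason the rank of TNFAIP6 among all genes is not known.

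Before LH, TNFAIP6 was not saturated on any array, and its level differed between replicates. Its normalised log2 channel level in the 4 pre-LH samples of the first slide was 9.66, 10.21, 12.40 and 10.25 for replicates 1 to 4. In the 4 pre-LH samples of the second slide it was 10.19, 10.83, 11.82 and 9.83. Replicate 3 was the highest on each slide, by 2.36 and 1.54 above the mean of the other replicates. The 8 post-LH levels lay between 15.11 and 15.55, and no pre-LH level reached them. Since 6 of these 8 spots were saturated, their spread is set by the scanner's ceiling and is not a measure of how much the post-LH samples varied.

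PTX3 rose on every array at both times. Its log2 ratio at 6 h was 4.69, 4.49, 3.42 and 3.82 for replicates 1 to 4. At 22 h it was 4.78, 5.00, 4.79 and 5.12. The arrays of 22 h lay closer together, with an SD of 0.17 against 0.59 at 6 h, and all of them were above all arrays of 6 h. The change was 4.11 ± 0.16 at 6 h, or 17.2-fold (adjusted p = 2.70e-05), and 4.92 ± 0.16 at 22 h, or 30.3-fold (adjusted p = 2.05e-05). No PTX3 spot was saturated. The change at 22 h was the third highest of the 14137 genes and that at 6 h the fourth highest, in rankings that hold the saturated TNFAIP6 at its measured value.

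The further increase of PTX3 from 6 h to 22 h, 0.81 ± 0.23, did not pass (adjusted p = 0.0725, in a comparison that 15.1% of all genes passed, 7.72% higher and 7.41% lower at 22 h). It passed without the 22 h array of replicate 1, at 0.96 (adjusted p = 0.0445), and with the authors' deposited table, at 0.73 (adjusted p = 0.00949). Time and slide cannot be told apart in this difference. In the channel levels, the mean ± SD was 8.36 ± 0.42 in the pre-LH samples of the first slide and 12.46 ± 0.63 at 6 h (n = 4 each). On the second slide it was 9.38 ± 0.69 before LH and 14.30 ± 0.54 at 22 h. The pre-LH samples of the second slide were thus 1.02 higher than those of the first, and the 22 h samples were 1.84 higher than the 6 h samples.

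**Figure D2:**
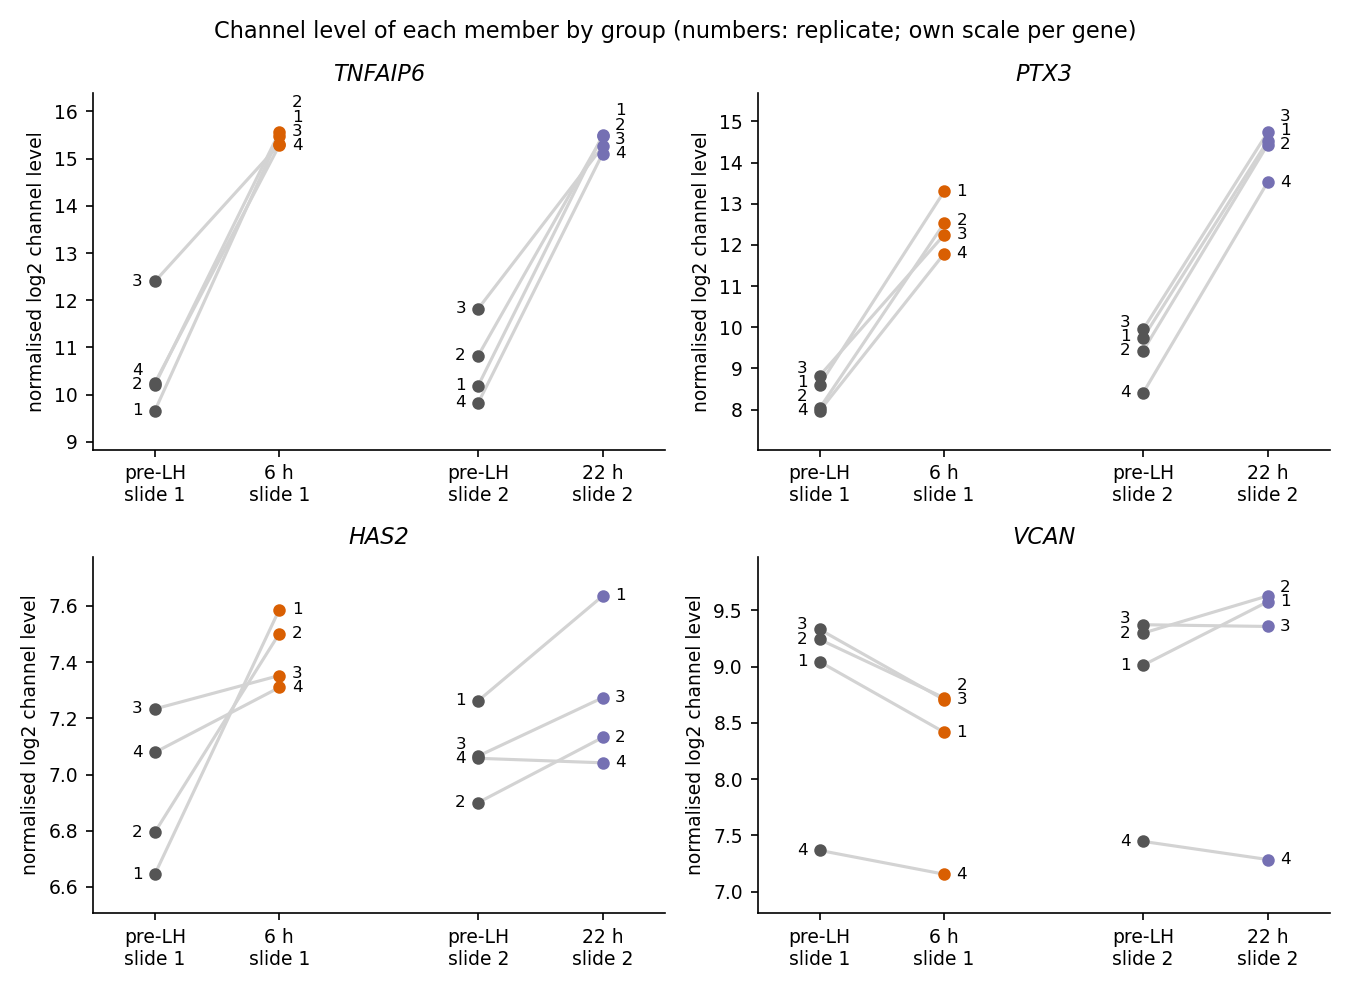
Normalised log2 channel level of each member in the pre-LH and post-LH channel of every array, with lines joining the channels of an array and numbers giving the replicate; each panel has its own scale, and levels of different genes cannot be compared. TNFAIP6 of replicate 3 is the highest before LH on each slide, PTX3 is higher before LH on the second slide, and VCAN of replicate 4 is the lowest in all 4 groups.

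HAS2, the synthase itself, gave a small rise at 6 h from a probe that was barely above background. Its log2 ratio at 6 h was 0.94, 0.71, 0.12 and 0.23 for replicates 1 to 4. At 22 h it was 0.37, 0.23, 0.21 and -0.02. All 4 arrays of 6 h and 3 of 4 at 22 h were positive, and the arrays of the 2 times overlapped. The change was 0.50 ± 0.08 at 6 h, or 1.41-fold (adjusted p = 0.00697). At 22 h, 0.20 ± 0.08 did not pass (adjusted p = 0.182), nor did the difference between the times, -0.30 ± 0.12 (adjusted p = 0.168).

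Before LH the HAS2 spot was above background on 4 of 8 arrays, and after LH on all 8. A spot counts as above background when its mean intensity exceeds a limit, the 95th percentile over negative control spots. The HAS2 spot ranged from 0.845 to 1.94 times that limit over both channels of the 8 arrays. The 4 arrays on which it was above background before LH were those with the pre-LH RNA in Cy5. The size of the HAS2 change is therefore uncertain, and its level before LH is known only to be near the limit.

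The ratio also differed with the dye. At 6 h the mean ratio was 0.82 with the post-LH RNA in Cy5 and 0.17 with it in Cy3. At 22 h the corresponding means were 0.30 and 0.10. In the authors' deposited table the ratios of HAS2 were 1.39, 1.02, 0.51 and 0.28 at 6 h and 1.11, 1.16, 0.32 and -0.39 at 22 h. With those deposited values HAS2 also passed at 22 h, at 0.55 (adjusted p = 0.0131). Leaving out both arrays of replicate 4, it no longer passed at 6 h, at 0.52 (adjusted p = 0.0549).

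**Figure D3:**
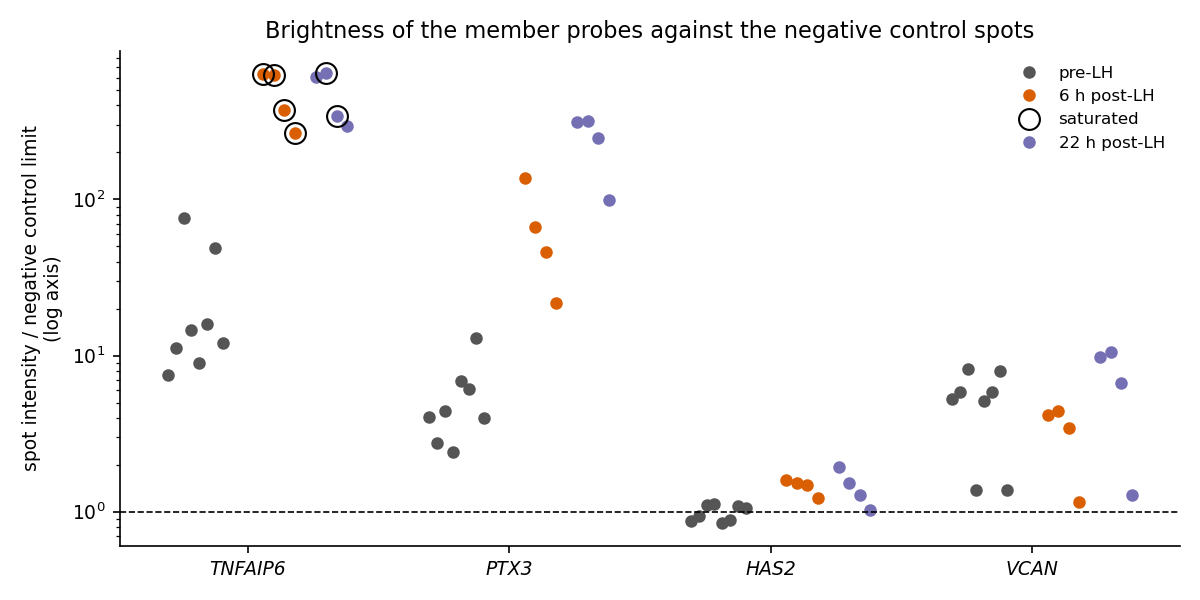
Mean intensity of each member's spot divided by the limit set by the negative control spots of the same array and dye, on a log axis, for pre-LH, 6 h and 22 h channels; rings mark saturated spots and the dashed line marks the limit. HAS2 lies between 0.845 and 1.94 times the limit, VCAN between 1.15 and 10.6, PTX3 between 2.40 and 318, and TNFAIP6 between 7.49 and 642; the heights of different probes are not levels of the genes.

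VCAN was the member that fell at 6 h, by a small amount. Its log2 ratio at 6 h was -0.63, -0.52, -0.62 and -0.21 for replicates 1 to 4. At 22 h it was 0.56, 0.33, -0.02 and -0.16. All arrays of 6 h were negative, and at 22 h the replicates with the post-LH RNA in Cy5 were positive and those with it in Cy3 were not. The change was -0.49 ± 0.12 at 6 h, or 1.41-fold lower (adjusted p = 0.0291). The value at 22 h, 0.18 ± 0.12, did not pass (adjusted p = 0.406). The difference between the times was 0.67 ± 0.17 (adjusted p = 0.0481).

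The calls on VCAN depended on single arrays. At 6 h the change did not pass without the 6 h array of replicate 1 (-0.40, adjusted p = 0.141), replicate 2 (-0.45, adjusted p = 0.139) or replicate 3 (-0.48, adjusted p = 0.0962), or without the 22 h array of replicate 3 (-0.49, adjusted p = 0.0511). With the replicate number as a block, the adjusted p was 0.0703 at 6 h and 0.103 between the times. The difference between the times did not pass without any 1 of the 6 arrays of replicates 1 to 3, where it ranged from 0.56 to 0.71.

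Channel levels of VCAN were lowest in replicate 4 in every group. In the pre-LH samples of the first slide they were 9.04, 9.24, 9.33 and 7.37 for replicates 1 to 4, and at 6 h 8.42, 8.72, 8.70 and 7.15. In the pre-LH samples of the second slide they were 9.01, 9.30, 9.37 and 7.45, and at 22 h 9.57, 9.63, 9.36 and 7.29. Replicate 4 minus the mean of the others was -2.23 to -1.46 on the log2 scale. That gap was larger than the change of VCAN at either time. In replicate 4 the VCAN spot was 1.15 to 1.39 times the negative control limit, so its ratios there rest on dim spots. PTX3 was lowest in replicate 4 in each group as well, at -1.30 to -0.52 against the mean of the others, while HAS2 was not lowest in replicate 4 before LH.

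By the root mean square difference of log2 ratios over the 8 arrays, the gene nearest to TNFAIP6 among all tested genes was PTX3 (0.87), followed by RGS2, a regulator of G protein signalling (1.38), and GEM, a small GTP-binding protein (1.89). As TNFAIP6 was saturated after LH on 6 of 8 arrays, its distances and their order hold for the measured values only. PTX3 was nearest to RGS2 (0.64), then TNFAIP6 and NT5E, a cell surface enzyme that makes adenosine (1.39). RGS2 rose by 3.46 at 6 h and 4.59 at 22 h, and NT5E by 2.55 and 3.76. The genes nearest to HAS2 were LOC784266 (0.11), RFESD (0.11) and KTI12 (0.13), and those nearest to VCAN were TAB1 (0.15), FBXO25 (0.17) and APOBEC3Z2 (0.19). The HAS2 spot was above background before LH on 4 of 8 arrays, so its distances are uncertain as well. The measure is a description of likeness over these arrays and says nothing of shared control.

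Other genes that build, bind, cut or induce the matrix were taken from 7 lists with 73 symbols, of which 61 were tested. At 6 h, 12 of the 61 rose and 4 fell. At 22 h, 11 rose and 3 fell, and between the times 4 were higher and 8 lower at 22 h. By direction, 19.7% of the listed genes rose and 6.56% fell at 6 h, against 11.5% and 12.8% of all genes. At 22 h, 18.0% rose and 4.92% fell, against 9.75% and 10.6%. Between the times, 6.56% were higher and 13.1% lower at 22 h, against 7.72% and 7.41%. The median change was 0.02 at both times against -0.00 and 0.01 over all genes. These shares are a description of lists chosen with earlier results known, and no test was made of the lists.

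**Figure D4:**
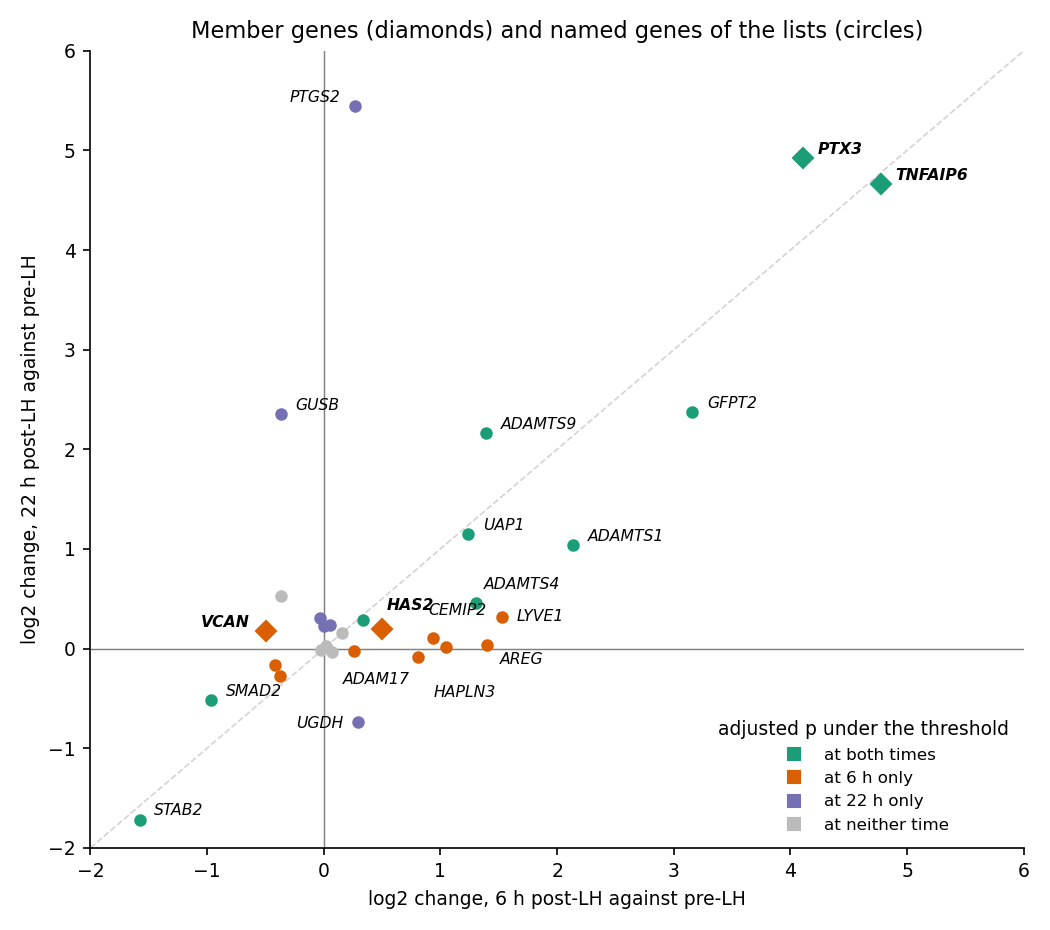
Log2 change against pre-LH at 6 h (horizontal) and at 22 h (vertical) for the 4 members (diamonds) and the named genes of the 7 lists (circles), coloured by the time at which the adjusted p was under 0.05; the dashed line marks equal changes. PTX3 and TNFAIP6 lie at the upper right, GFPT2 below them, PTGS2 and GUSB high at 22 h alone, and VCAN and HAS2 near the origin.

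The list of hyaluronan synthesis and sugar precursors held 8 tested genes besides HAS2, namely the synthase HAS3 and 7 genes of sugar supply. Of the 8, GFPT1, GFPT2 and UAP1 rose at 6 h. At 22 h, GFPT2, UAP1 and HAS3 rose and UGDH fell. GFPT2, which makes glucosamine phosphate at the entry of the pathway to UDP-N-acetylglucosamine, had log2 ratios of 4.64, 4.46, 1.99 and 1.54 at 6 h. At 22 h they were 2.93, 2.57, 2.26 and 1.74. All were positive, with the higher values in replicates 1 and 2. The change was 3.16 ± 0.29 at 6 h (adjusted p = 0.000761) and 2.37 ± 0.29 at 22 h (adjusted p = 0.00264). GFPT2 was saturated after LH on 2 of 4 arrays at 6 h and 1 of 4 at 22 h, and without saturated spots the 6 h change was 4.31. That value rests on replicates 1 and 2, both with the post-LH RNA in Cy5. Their median pixels, 63975 and 65468, were just below the scanner's ceiling. Their pre-LH levels were 10.78 and 11.06, against 13.29 and 13.94 in replicates 3 and 4. The 4.31 is therefore not a value corrected for saturation.

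UAP1, the last enzyme of that pathway, rose by 1.24 ± 0.19 at 6 h (adjusted p = 0.00546) and by 1.15 ± 0.19 at 22 h (adjusted p = 0.0088). Without the 22 h array of replicate 3 the later value was 1.05 (adjusted p = 0.0599). UGDH makes the other substrate, UDP-glucuronic acid. Its change was 0.29 at 6 h (adjusted p = 0.209), and it fell by 0.74 at 22 h (adjusted p = 0.0133), a call made by 1 of its 3 probes and not kept without the 22 h array of replicate 3 (-0.68, adjusted p = 0.082) or with only the arrays of 1 time fitted (adjusted p = 0.0885). The mean over the 3 probes of UGDH was -0.28 (adjusted p = 0.0446). HAS3, another hyaluronan synthase, had a change of 0.05 at 6 h and rose by 0.23 at 22 h (adjusted p = 0.0396), with an adjusted p of 0.0532 with the replicate block. That call was also lost without the 6 h array of replicate 1, 2 or 3 or the 22 h array of replicate 1, 3 or 4 (0.16 to 0.26). The HAS3 spot was dim, at 1.08 to 2.11 times the negative control limit over both channels of all arrays. GFPT1, a relative of GFPT2, rose by 0.26 at 6 h (adjusted p = 0.00954). This did not pass without the 6 h array of replicate 1 (0.22, adjusted p = 0.05003) or without both arrays of replicate 3 (0.25, adjusted p = 0.0748). Nor did it pass with the deposited values (0.23, adjusted p = 0.219), median spot intensity (0.19, adjusted p = 0.133) or no dye term (adjusted p = 0.0606). With median centring and with Aquantile and equal spread the adjusted p was 0.637 and 0.116. HAS1 was not among the 8 of 9 listed symbols with a probe in the platform annotation, so it was not analysed here.

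Among 6 tested genes of hyaluronan breakdown, 1 rose at each time. CEMIP2, a cell surface hyaluronidase, had ratios of 0.40 to 1.36 at 6 h and rose by 0.94 ± 0.09 (adjusted p = 0.000931). At 22 h its value was 0.11 ± 0.09 (adjusted p = 0.527). GUSB, the lysosomal beta-glucuronidase, was -0.37 at 6 h (adjusted p = 0.0727) and rose by 2.35 ± 0.11 at 22 h (adjusted p = 6.29e-05), with ratios of 2.61, 2.33, 2.47 and 2.01. The difference between the times passed for each, at -0.83 (adjusted p = 0.00964) for CEMIP2 and 2.72 (adjusted p = 0.000307) for GUSB.

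Of 8 tested hyaluronan receptors, 1 rose and 2 fell at 6 h, and 1 fell at 22 h. STAB2, a scavenger receptor that clears hyaluronan, fell by 1.58 at 6 h (adjusted p = 0.0011) and by 1.72 at 22 h (adjusted p = 0.000873). LYVE1, known from lymphatic vessels, had ratios of 2.29, 1.99, 0.91 and 0.91 at 6 h, where it rose by 1.52 ± 0.16 (adjusted p = 0.00117). At 22 h its ratios of 0.18 to 0.44 gave 0.32 (adjusted p = 0.275). HMMR, a hyaluronan-binding protein of the mitotic spindle, fell by 0.37 at 6 h (adjusted p = 0.0399; 0.0538 with the replicate block), with a spot above background on 2 of 4 arrays there. Its call was lost without any 1 of the 6 h arrays or the 22 h array of replicate 1 (-0.41 to -0.32). CD44, the main cell surface receptor, was 0.16 at 6 h (adjusted p = 0.0823) and 0.15 at 22 h (adjusted p = 0.102), and it passed at both times without the 6 h array of replicate 4 (0.22, adjusted p = 0.026, and 0.15, adjusted p = 0.0415).

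Of 13 tested matrix proteins that bind hyaluronan or make up inter-alpha-trypsin inhibitor, 1 rose and 1 fell at 6 h, and 1 rose at 22 h. HAPLN3, a link protein, had ratios of 0.93 to 1.17 at 6 h and rose by 1.05 ± 0.10 (adjusted p = 0.000967), while at 22 h it was 0.02 (adjusted p = 0.95). ITIH1 and ITIH2, heavy chains that TNFAIP6 transfers and that come mainly from liver, did not pass at either time, with values of 0.07 and -0.02 at 6 h and -0.04 and -0.01 at 22 h. HAPLN1, another link protein, was 0.02 at both times. The spots of ITIH1, ITIH2 and HAPLN1 lay near the negative control limit in both channels of every array. They were 1.06 to 1.45, 1.07 to 1.18 and 0.976 to 1.16 times that limit. Values near 0 from such dim spots do not show that these genes were unchanged. ITIH5, a relative of these heavy chains, fell by 0.42 at 6 h (adjusted p = 0.0261), which did not pass without the 6 h array of replicate 1, 2 or 4 (-0.38, -0.43 and -0.31; adjusted p of 0.127, 0.1 and 0.0825). BCAN, a proteoglycan known from brain, rose by 0.23 at 22 h (adjusted p = 0.0438; 0.0827 with the replicate block), which did not pass without any 1 of the 6 h arrays or the 22 h array of replicate 1, 3 or 4 (0.16 to 0.25).

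Of 6 tested proteases that cut versican or are related to those that do, ADAMTS1, ADAMTS4 and ADAMTS9 rose at both times and 0 fell, with a median change of 0.70 at 6 h and 0.25 at 22 h against -0.00 and 0.01 over all genes. ADAMTS1 had ratios of 1.99, 2.20, 2.07 and 2.29 at 6 h, and of 0.58, 0.95, 1.12 and 1.51 at 22 h. It rose by 2.14 ± 0.11 at 6 h (adjusted p = 7.17e-05) and by 1.04 ± 0.11 at 22 h (adjusted p = 0.00128). The arrays of the 2 times did not overlap, and the difference was -1.10 ± 0.15 (adjusted p = 0.00622). ADAMTS4 rose by 1.30 at 6 h (adjusted p = 0.000338) and by 0.45 at 22 h (adjusted p = 0.025), the latter not kept without the 22 h array of replicate 2 (0.46, adjusted p = 0.0718), 3 (0.49, adjusted p = 0.0885) or 4 (0.33, adjusted p = 0.0606). ADAMTS9 rose by 1.39 ± 0.14 at 6 h (adjusted p = 0.00113) and by 2.16 ± 0.14 at 22 h (adjusted p = 0.000204). None of the 3 tested pentraxins other than PTX3 passed at an adjusted p under 0.05 in limma's fit, and their median was 0.02 at 6 h and 0.01 at 22 h.

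Of 17 tested genes for signals that induce expansion, 3 rose and 1 fell at each time. AREG, an EGF-like ligand released by granulosa cells, had ratios of 2.56, 1.56, 0.32 and 1.15 at 6 h and rose by 1.399 ± 0.246 (adjusted p = 0.00913). At 22 h its ratios lay between -0.07 and 0.08. ADAM17, which sheds such ligands, rose by 0.81 ± 0.05 at 6 h (adjusted p = 0.000218) and was -0.09 at 22 h (adjusted p = 0.377). SMAD2, which carries GDF9-type signals, fell by 0.96 at 6 h (adjusted p = 0.000455), in 1 of 2 probes, and by 0.52 at 22 h (adjusted p = 0.00601), in 2 of 2. The means over the probes were 0.51 at 6 h for ADAM17, and -0.49 and -0.32 for SMAD2.

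PTGS2, the inducible enzyme of prostaglandin synthesis, had ratios of 0.68, 0.29, 0.10 and 0.00 at 6 h and of 4.47, 5.92, 6.09 and 5.30 at 22 h. Before LH its spot was above background on none of the 4 arrays of the first slide and on all 4 of the second. These pre-LH spots were 0.960 to 0.996 times the negative control limit on the first slide and 1.01 to 1.28 on the second. At 6 h the PTGS2 spots were 0.986 to 1.54 times that limit and at 22 h 32.5 to 136 times. The sizes of the PTGS2 changes are therefore uncertain. The change at 22 h was 5.44 ± 0.26 (adjusted p = 6.02e-05), passed by 3 of 3 probes, against 0.27 ± 0.26 at 6 h (adjusted p = 0.585). The size at 22 h depended on the processing, at 2.93 for the mean over its probes and 6.96 with Aquantile and equal spread between arrays, and at 6 h the authors' deposited table gave 0.53 (adjusted p = 0.026). PTGES, a prostaglandin E synthase, was -0.03 at 6 h and rose by 0.31 ± 0.04 at 22 h (adjusted p = 0.00191). The PTGES spot was 1.24 to 2.39 times the negative control limit over both channels of all arrays. For the brightest IL6 probe it was 1.09 to 2.32 times, so the small changes of both genes rest on dim spots. IL6 rose by 0.34 at 6 h (adjusted p = 0.00967) and 0.29 at 22 h (adjusted p = 0.0202), each in 1 of 2 probes, and the means over its probes were 0.19 and 0.15 (the latter with an adjusted p of 0.0861). The call on IL6 at 6 h was lost without the 6 h array of replicate 1 (0.34, adjusted p = 0.0501) or 2 (0.28, adjusted p = 0.0528), and that at 22 h without the 22 h array of replicate 2, 3 or 4 (0.25 to 0.28).

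Markers of other cells were counted as well, and their part in the changes above was not tested. Among all genes, 11.5% rose and 12.8% fell at 6 h, and 9.75% rose and 10.6% fell at 22 h. A share near these is not a result about a list. Of 8 tested theca markers, 5 fell (62.5%) and 1 rose (12.5%) at 6 h and 6 fell (75%) at 22 h. The marker that rose was CYP17A1, at 0.36 (adjusted p = 0.0239), and at 22 h it was -1.88 (adjusted p = 4.03e-05). The log2 of the summed level of the theca markers was 14.6 to 15.3 before LH, 13.9 to 14.2 at 6 h and 13.5 to 14.5 at 22 h. Of 14 tested fibroblast and smooth muscle markers, 2 rose at 6 h (14.3%) and 1 at 22 h (7.14%), and 0 fell. The summed levels of this list were 17.1 to 17.5 before LH, 16.9 to 17.3 at 6 h and 17.1 to 17.5 at 22 h. PDGFRA, which defines many stromal cells, was 0.27 at 6 h and 0.23 at 22 h, neither past the threshold. Of 19 tested leukocyte markers, 5 rose at 6 h (26.3%), namely CD68, CD163, AIF1, CD14 and S100A9, and 0 fell. At 22 h, 0 rose and 1 fell (LYZ, 5.26%). The summed levels of this list were 11.9 to 12.5 before LH, 12.2 to 12.6 at 6 h and 11.9 to 12.8 at 22 h. The common leukocyte antigen PTPRC, with 1 of 2 probes tested, was -0.14 (adjusted p = 0.742) and -0.13 (adjusted p = 0.754).

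Of 11 tested endothelial markers, 2 rose and 1 fell at 6 h (18.2% and 9.09%) and 6 fell at 22 h (54.5%). The summed levels of this list were 13.5 to 14.5 before LH, 13.5 to 14.3 at 6 h and 13.0 to 14.1 at 22 h. Of 7 tested markers of surface epithelium, 2 rose and 1 fell at 6 h (28.6% and 14.3%) and 1 fell at 22 h (14.3%). Summed levels of these markers were 10.7 to 11.1 before LH, 11.2 to 12.2 at 6 h and 10.8 to 11.6 at 22 h. Of 10 tested oocyte genes, which do not measure cumulus cells left behind, 1 rose at 6 h (DAZL) and 1 at 22 h (KIT). That is 10% at each time, and 0 fell. The summed levels of this list were 10.6 to 10.9 before LH, 10.8 to 11.02 at 6 h and 10.9 to 11.3 at 22 h. Before LH, BMP15 and ZP3 were above background on 8 of 8 arrays, ZP2 on 7 and GDF9 on 1. Their changes lay between -0.04 and 0.03 at 6 h and between -0.04 and 0.02 at 22 h, none past the threshold. Their mean normalised log2 levels were 6.93 to 7.32 over the groups. That is as low as the dim HAPLN1, ITIH1 and ITIH2, at 7.00 to 7.24. Values near 0 at such levels do not show that these genes were unchanged.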

How the data were processed

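Per the labels' protocols, amplified antisense RNA was labelled with Cy3 or Cy5. Per the file headers, the deposited scanner files give each spot's intensity and local background for both dyes, unnormalized. The authors also deposited a table of log2 ratios, with processing steps not given in the sources used here. Over probes, the correlation of its columns with the post-LH over pre-LH ratio was 0.84 to 0.93, had slopes of 1.07 to 1.27 and medians of -0.0175 to 0.00517, so it was read as log2 ratios already turned for dye and centred near 0, with an unknown normalization.

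From 45212 named spots per array (8 rows without a name left out), mean spot intensity was corrected by normexp (offset 50) on the median background and normalised by loess in limma 3.58.1 under R 4.3.3, with 1418 control spots at weight 0. A probe was tested when, in 1 or more groups of RNA, a share of 0.5 or more of the arrays had it above the 95th percentile of 153 negative control spots. Saturated spots were kept. Of 43794 probes, 21790 had 1 symbol in the platform annotation, 22004 none and 0 several, and 1644 symbols were brought up to date through the reference gene table. A gene took the value of its brightest tested probe. Channel levels are log2 values after loess and Aquantile. The model held a 6 h, a 22 h and a common dye coefficient (lmFit, eBayes), with 5 residual degrees of freedom, a prior of 1.94 and adjusted p-values over all 38453 tested probes. The fit was tested on simulated data first.

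The members and lists were chosen with earlier results of these data known. Named were the members, the 3 genes nearest to each, up to 6 called genes per list by the larger change, and PTGS2, HAS3, CD44, HAPLN1, ITIH1, ITIH2 and ADAMTS1 whatever their values. Same-numbered samples deviated together: with dye removed, channel levels of the post-LH samples correlated between the slides with r of 0.30 and 0.88 and those of the pre-LH samples with 0.44 and 0.97, so the numbers were taken to pair the samples, although the ratios correlated with 0.04 and 0.29. The main fit has no block. Alternatives changed background correction, normalization, filters, saturated spots, dye term, arrays, probes per gene, channels and the source of values.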

Additional observations from a re-analysis of the deposited data

Results flagged for a closer look

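The level of VCAN in replicate 4 lay far from the other 3 samples in the pre-LH samples of the first slide, where the gap to its nearest neighbour was 0.854 of the group's range, and at 22 h, where it was 0.884. By chance about 5% of such groups are expected to stand out this way, and 24 groups of 4 were looked at. In the same samples 8.10% of all tested probes before LH and 6.37% after LH were more than 2-fold lower in replicate 4 on both slides; the part of this in the VCAN level was not tested.

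The changes at 6 h and at 22 h differed by limma's test of the difference for 13 of the named genes, with the 22 h minus 6 h value given in log2. Time and slide cannot be told apart in each of them. VCAN differed by 0.67, with the limits given above. Of the sugar precursor genes, UGDH differed by -1.03 (adjusted p = 0.0183; -0.51 for the mean over its probes), UGP2, which makes UDP-glucose, by 0.90 (adjusted p = 0.0364; 0.0775 with the replicate block) and GFPT1 by -0.28 (adjusted p = 0.0381; 0.0928 with the replicate block). Of breakdown and receptor genes, GUSB differed by 2.72, CEMIP2 by -0.83 and LYVE1 by -1.21 (adjusted p = 0.0184; 0.0554 with the replicate block). HAPLN3 differed by -1.03 (adjusted p = 0.0067), ADAMTS1 by -1.10 and ADAMTS4 by -0.85 (adjusted p = 0.0114). Of the inducing signals, PTGS2 differed by 5.17 (adjusted p = 0.00057; 2.83 for the mean over its probes, and adjusted p = 0.0915 with Aquantile and equal spread between arrays), PTGES by 0.34 (adjusted p = 0.00791) and ADAM17 by -0.90 (adjusted p = 0.0011; -0.47 for the mean over its probes). The difference of UGDH was not called without the 6 h array of replicate 1, 2 or 3 or the 22 h array of replicate 3 (-1.07, -0.93, -0.94 and -0.97), and that of LYVE1 without the 6 h array of replicate 2 (-1.16). That of UGP2 was not called without the array of replicate 2, 3 or 4 at either time (0.79 to 0.89), nor that of GFPT1 without the array of replicate 1, 2 or 3 at either time (-0.29 to -0.24).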

How the results depend on the processing

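Of the 25 alternatives, 21 were planned and 4 were added after seeing the values computed here: median spot intensity, leaving out spots with ignored cells, and leaving out both arrays of replicate 3 or of replicate 4. Values below are log2 changes with limma's adjusted p unless they are counts. TNFAIP6 and PTX3 kept their direction at both times in each alternative that gave a value, with ranges of 4.16 to 5.38 and 3.92 to 4.43 at 6 h and of 4.11 to 6.10 and 4.72 to 6.32 at 22 h. With Aquantile and equal spread between arrays, neither passed at 6 h (TNFAIP6 4.16, adjusted p = 0.112; PTX3 3.92, adjusted p = 0.173). The difference of TNFAIP6 between the times changed sign with that setting (1.94) and with the deposited values (0.0115), and was -0.64 to 0.21 with replicates left out. For PTX3 this difference passed with no background correction (0.84, adjusted p = 0.0139), the deposited values (0.73) and separate channels (1.13, adjusted p = 0.0338), and was 0.63 to 0.96 with replicates left out. HAS2 at 6 h did not pass with median centring (0.50, adjusted p = 0.0607) and was 0.41 to 0.57 with replicates left out. With the stricter filter on dim probes HAS2 had no value in any comparison. At 22 h it passed with no background correction (0.54, adjusted p = 0.00931), with Aquantile and equal spread (0.31, adjusted p = 0.0205) and with the deposited values (0.55). VCAN at 6 h did not pass with median centring (-0.54, adjusted p = 0.704), Aquantile and equal spread (-0.55, adjusted p = 0.179) or separate channels (-0.50, adjusted p = 0.243), and was -0.65 to -0.40 with replicates left out. Its difference between the times did not pass with median centring (0.61, adjusted p = 0.998), Aquantile and equal spread (0.92, adjusted p = 0.137), no filter on dim probes (0.67, adjusted p = 0.0532), no dye term (0.67, adjusted p = 0.0528) or separate channels (0.69, adjusted p = 0.259), and was 0.56 to 0.88 with replicates left out. The cause was not tested.

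With the replicate block, VCAN was -0.49 at 6 h (adjusted p = 0.0703) and 0.67 between the times (adjusted p = 0.103), and 3359, 2854 and 2022 genes were called for 6 h, for 22 h and for the difference. The block also ended the calls on HMMR at 6 h, HAS3 and BCAN at 22 h, and UGP2, GFPT1 and LYVE1 between the times, and it changed no other call on a member or a named gene of the lists.

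Counts moved most with the normalization. Median centring called 85 genes at 6 h (89.4% of them higher, against 47.4% in the main fit), 136 at 22 h (73.5% higher, against 47.9%) and 22 between the times; of the listed genes it called 1 higher and 0 lower at 6 h, 2 and 0 at 22 h, and 1 and 0 between the times. Aquantile and equal spread called 309 (61.2% higher), 1709 and 211 genes, and of the listed genes 2 higher and 1 lower at 6 h, 6 higher at 22 h, and 0 and 0 between the times. Fitting only the arrays of 1 time called 1025 genes at 22 h, with 7 listed genes higher and 1 lower. Between the times, 7 listed genes were higher with no background correction and 7 with the deposited values, and 5 were lower with no dye term. In the main fit the counts were 3437, 2878 and 2139. With replicates left out, 1933 to 3765 genes were called at 6 h, 1401 to 2836 at 22 h and 917 to 2052 for the difference, the lowest without the 6 h array of replicate 2 (1933; 1967 without that of replicate 1) and without both arrays of replicate 3 (1401 and 917; 1473 and 1291 without the 22 h array of replicate 3 alone, and 1328 and 1187 between the times without the 6 h array of replicate 1 or 2). The listed genes called were then 10 to 13 higher and 2 to 4 lower at 6 h, 6 to 11 and 1 to 3 at 22 h, and 3 to 5 and 3 to 8 between the times. Of the other named values, those near 0 changed sign: HAS3 at 6 h (-0.0147) and ITIH2 at 6 h (0.00116) with the deposited values, ITIH1 (0.0302) and ITIH2 (0.0158) at 22 h with median centring, ITIH2 at 22 h with median spot intensity (0.0222), and HAPLN1 at 6 h (-0.0122 to 0.0363) and ITIH2 at 22 h (-0.0472 to 0.0195) with replicates left out. Signal near background limits HAS2, VCAN in replicate 4, AREG before LH and at 22 h, and PTGS2 before LH and at 6 h. It also limits, among others, HAS3, PTGES, IL6, HAPLN1, ITIH1 and ITIH2. The scanner's ceiling limits TNFAIP6 and GFPT2.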

Other observations

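GFPT2 stood out among the listed genes in its level before LH. Its normalised log2 channel level in the pre-LH samples of the first slide was 10.78, 11.06, 13.29 and 13.94 for replicates 1 to 4, and in those of the second slide 12.23, 12.59, 12.86 and 13.63. Replicates 1 and 2 were thus lower on the first slide than on the second, while replicates 3 and 4 were slightly higher, and the dyes were the same on both slides. After LH its spot was saturated on 3 of 8 arrays, so the ratios on those arrays are limited by the scanner's ceiling.

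PTX3 was higher before LH on the second slide than on the first for each replicate number, at 9.74 against 8.61, 9.43 against 8.03, 9.95 against 8.82 and 8.40 against 7.97. TNFAIP6, HAS2 and VCAN differed between the slides before LH by 0.04, 0.13 and 0.04 on average. The sources used here do not say whether the same pre-LH RNA was on both slides.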
